A study of Mus musculus with 5 samples.

Results

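The genes described here, 10 markers of resting or adventitial fibroblasts, were measured in murine lung cancer-associated fibroblasts (CAFs) with and without an overexpressed miRNA cluster that encodes miR-200b, miR-429 and miR-200a. They were chosen by name, as *Clec3b*, *Svep1*, *Dpt*, *Ly6a*, *Ly6c1*, *Pi16*, *Cd34*, *Col14a1*, *Thy1* and *Ddr2*, and all 10 were found among the 21835 genes of the deposited table. The cells were cultured in alpha-MEM with FBS, and RNA was sequenced in bulk as stranded mRNA libraries. CAF-vec (2 samples, genotype label WT control) carried the empty lentiviral vector, and CAF-200 (3 samples, genotype label miR-200 overexpression) carried the cluster in the same kind of vector. Both groups were lung CAFs, and the strain, age and number of donor mice are not given in the sources used here. The labels name a neomycin vector put into CAFs with G418 selection, whereas the study's cell culture methods name a hygromycin vector put into lung fibroblasts. The study's results, figure legends and sequencing methods name CAFs as the transduced cells. The study's methods state 3 RNA extractions for CAF-vec as for CAF-200, whereas the series holds 2 CAF-vec samples. Nothing in the sources says that the samples of a group came from separate transductions or cultures. The *p* values below therefore measure the spread between these samples, which may be technical.

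Adventitial fibroblasts form the cuffs around large vessels and airways, and a related universal fibroblast state, marked by *Pi16* and *Dpt*, is found in many organs. Resting fibroblasts of this kind secrete proteins that bind and space collagen fibrils, carry small surface proteins anchored by glycosylphosphatidylinositol (GPI) such as Sca-1 and Thy-1, and read collagen through discoidin receptors. miR-200 family members repress mRNAs by pairing of their seed, bases 2 to 8, with matches in 3′-UTRs.

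The mature miRNAs of the overexpressed cluster are shown because their seeds define the matches counted in the markers (RefSeq, GRCm38.p6, chromosome 4, minus strand, 22 bases each), with the seed in capitals.
mmu-miR-200b-3p: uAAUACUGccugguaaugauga
mmu-miR-429-3p: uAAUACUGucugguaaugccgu
mmu-miR-200a-3p: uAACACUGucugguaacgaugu
miR-200b and miR-429 shared the seed AAUACUG, whose match in DNA letters is CAGTATT, and the seed of miR-200a is AACACUG, with the match CAGTGTT. In the longest annotated 3′-UTR of each gene (GENCODE M21, GRCm38, read along the mRNA), 3 of the 10 markers held 1 match each and 7 held none. Among the 12055 tested genes with an annotated 3′-UTR, 30.3% held either match, 15.8% held CAGTATT and 20.8% held CAGTGTT. The matches of the markers are printed below with up to 11 bases on each side and the match in capitals.
*Dpt*: tgagacacaccCAGTATTcatatgaagac
*Ly6c1*: catgcaacaggCAGTATTccaaggtatta
*Ddr2*: tcagcacctggCAGTGTTcctgtggccca
The match of *Dpt* lay at chr1:164824074-164824080 on the plus strand, at position 838 of a 3′-UTR of 1030 bases. In *Ly6c1* it lay at chr15:75045131-75045137 on the minus strand, at position 265 of 389, and in *Ddr2* at chr1:169977830-169977836 on the minus strand, at position 19 of 5548. *Clec3b*, *Svep1*, *Ly6a*, *Cd34*, *Thy1*, *Pi16* and *Col14a1* held neither match in 3′-UTRs of 285 to 2106 bases. A match is a description of the letters and no evidence of repression.

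The deposited values are in CPM, with about the same total in each sample. They may not be plain scaled read counts, because no gene was at 0 in only some of the CAF-200 samples and some CAF-200 values lay under 0.005 CPM, and what this does to low values and to the spread within CAF-200 is unknown. Over the 12175 genes tested, the log2 difference had an SD of 0.49 for the pair of CAF-vec samples, larger than the 0.19 to 0.20 found for each pair within CAF-200. Read depth is unknown. The mesenchymal character of the cells was read from 6 pan-mesenchymal genes. Their CPM summed to 16200 and 14150 in CAF-vec and to 11890 to 12790 in CAF-200. The sum of 8 epithelial genes was at most 0.0594 CPM in any sample. These genes cannot show lung origin or CAF state, and those parts of the label were not tested.

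Of the 10 markers, 8 had at least 0.5 CPM in every sample and were tested, and *Pi16* and *Col14a1* were too low. *Clec3b*, *Dpt* and *Svep1* fell in CAF-200, *Thy1* rose, and *Ddr2*, *Ly6c1*, *Cd34* and *Ly6a* did not pass an adjusted *p* of 0.01 (limma on log2(CPM + 0.5), Benjamini-Hochberg adjustment over all 12175 genes). Thus 3 markers were lower at that threshold, where 5.57% of all genes tested were, and 1 was higher, against 4.45%. With a log2 fold-change beyond 1 as well, 2 were lower and 1 higher, against 2.35% and 2.37% of all genes. The study set these cut-offs on edgeR results, whereas here they are set on limma with log2(CPM + 0.5). For 6 of the 8 tested markers every CAF-200 sample was lower than either CAF-vec sample (37.3% of all genes tested), for 1 every sample was higher (24.3%), and for 1 the groups overlapped. The calls of *Clec3b*, *Dpt*, *Svep1* and *Thy1* were lost when any 1 CAF-200 sample was left out, with adjusted *p* values of 0.0244 to 0.0368 (limma). Under these settings 0 of all 12175 genes were lower and at most 1 was higher, so the loss is not particular to these markers. The median log2 fold-change of the tested markers was -0.56, and that of all genes tested was -0.094. Because bulk RNA was measured, fewer cells of a type and less RNA per cell cannot be told apart.

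**Figure D1:**
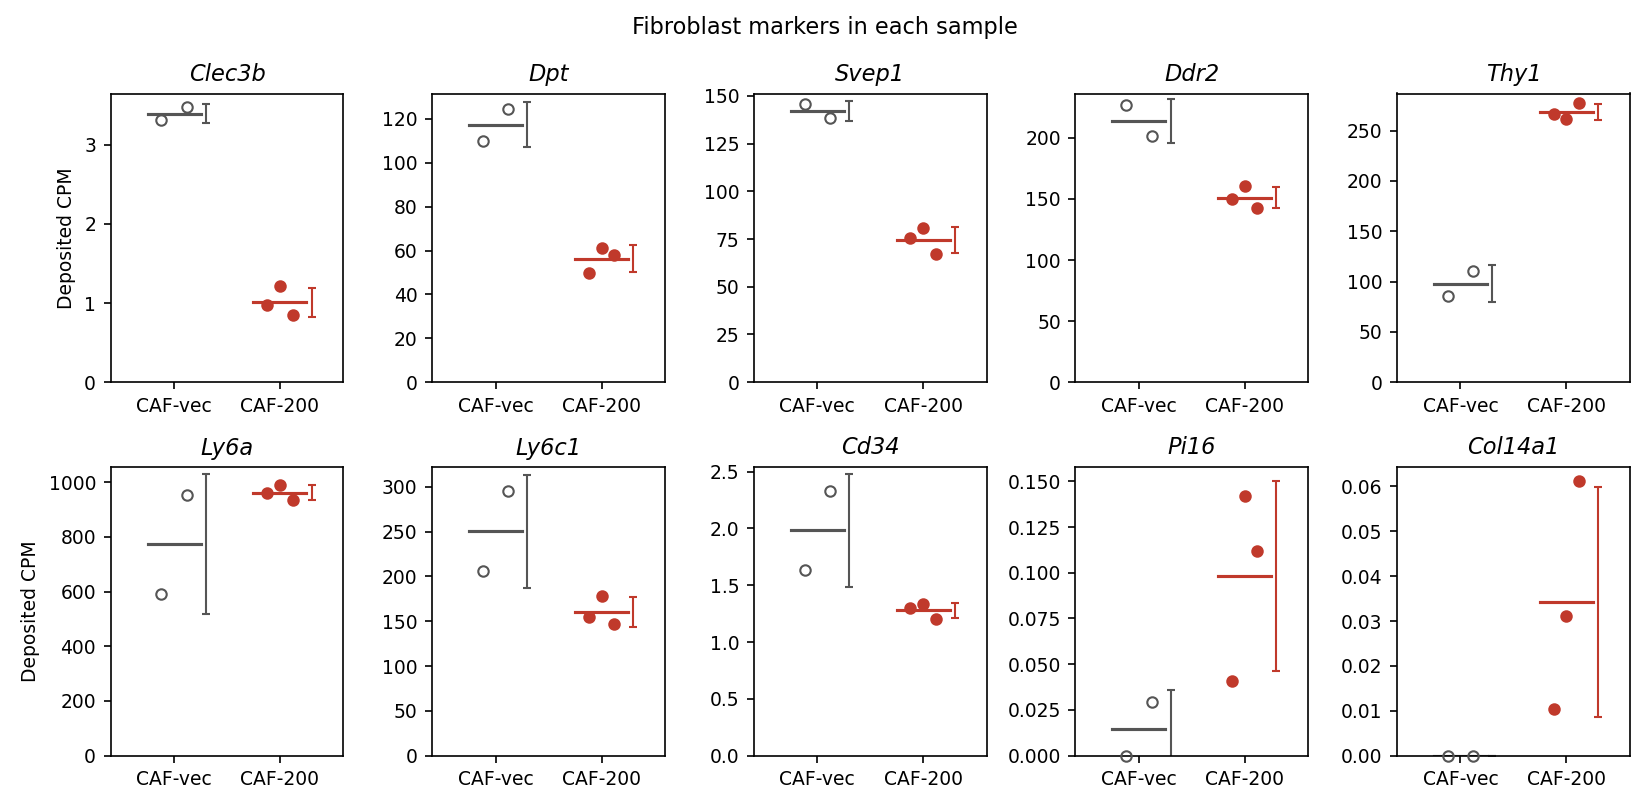
Deposited CPM of each of the 10 markers in the 2 CAF-vec samples (open circles) and the 3 CAF-200 samples (filled circles), with the group mean (horizontal bar) and SD (error bar), on a linear axis from 0 in each panel. Among the 8 tested markers the groups overlap only for *Ly6a*. Over all genes tested, the groups were apart with CAF-200 lower for 37.3% and higher for 24.3%. *Pi16* and *Col14a1* stay under 0.15 CPM and were not tested, and their separation carries the doubt about the scale of low values.

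The secreted matrix and plasma proteins of the list were led by *Clec3b*, which encodes tetranectin, a C-type lectin that binds plasminogen. *Clec3b* (ENSMUSG00000025784, chr9:123150946-123157432, plus strand, GRCm38) was at 3.31 and 3.48 CPM in CAF-vec and at 0.98, 1.21 and 0.85 CPM in CAF-200. All CAF-200 samples lay far below both CAF-vec samples, and the samples within each group lay close together. Mean *Clec3b* was 3.35-fold lower, at 1.01 ± 0.18 CPM (SD, n = 3) against 3.39 ± 0.12 CPM (SD, n = 2). On the log2(CPM + 0.5) scale, which understates the change of such a low gene, the fold-change was -1.37 (standard error 0.15, 95% interval -1.75 to -0.99, adjusted *p* = 0.0042, limma). It ranked 144 among the falls of the 12175 genes tested.

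*Dpt* encodes dermatopontin, a small protein that binds decorin and collagen and promotes fibril assembly. *Dpt* (ENSMUSG00000026574, chr1:164796644-164824266, plus strand) was at 110.1 and 124.7 CPM in CAF-vec and at 49.7, 61.3 and 58.1 CPM in CAF-200. The highest CAF-200 sample lay well under the lower CAF-vec sample. Mean *Dpt* was 2.08-fold lower, at 56.4 ± 6.01 CPM (SD, n = 3) against 117.4 ± 10.3 CPM (SD, n = 2), with a log2 fold-change of -1.06 (standard error 0.12, 95% interval -1.36 to -0.75, adjusted *p* = 0.0047, limma). After quantile normalization or centring on the median of each sample the log2 fold-change was -0.95 and -0.96, short of the fold-change threshold, while the adjusted *p* stayed under 0.01.

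*Svep1* encodes a very large extracellular protein with sushi, von Willebrand factor A, EGF and pentraxin domains, known as a ligand in lymphatic vessel development. *Svep1* (ENSMUSG00000028369, chr4:58042442-58206859, minus strand) was at 145.7 and 138.3 CPM in CAF-vec and at 75.7, 80.6 and 67.2 CPM in CAF-200. Again the groups did not overlap, and the CAF-vec samples differed by less than the CAF-200 samples did. Its mean was 142.0 ± 5.22 CPM (SD, n = 2) against 74.5 ± 6.78 CPM (SD, n = 3), 1.91-fold lower (log2 fold-change -0.93, standard error 0.11, 95% interval -1.19 to -0.67, adjusted *p* = 0.0046, limma).

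*Col14a1*, which encodes the fibril-associated collagen XIV, is a defining marker of adventitial fibroblasts. *Col14a1* (ENSMUSG00000022371, chr15:55307750-55520803, plus strand) had values of 0.0103, 0.0312 and 0.0613 CPM in CAF-200, and both values of CAF-vec were listed at 0. *Pi16* encodes peptidase inhibitor 16 of the CAP family and gives the universal state its usual name. *Pi16* (ENSMUSG00000024011, chr17:29317680-29330593, plus strand) was listed at 0 in CAF-vec 1 and at 0.0295 CPM in CAF-vec 2, against 0.0407, 0.142 and 0.112 CPM in CAF-200. Both genes stayed under the 0.5 CPM required for testing in every sample, and no fold-change is given. Values this low carry the doubt about the scale given above. With no filter on low values their adjusted *p* was 0.272 for *Col14a1* and 0.147 for *Pi16* (limma). These data thus go against the adventitial name of the list in one respect, since *Pi16* and *Col14a1*, its most specific markers, were nearly absent in both groups. An antisense transcript overlaps exons of *Pi16*, and the sources used here do not say whether reads were counted by strand.

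Among the surface proteins, *Thy1* moved against the secreted ones. *Thy1* encodes the GPI-anchored immunoglobulin-fold protein CD90, which marks many fibroblasts and also T cells and neurons. *Thy1* (ENSMUSG00000032011, chr9:44043384-44048579, plus strand) was at 85.3 and 110.8 CPM in CAF-vec and at 266.4, 261.3 and 277.0 CPM in CAF-200. Every CAF-200 sample was more than the higher CAF-vec sample by a wide margin. Mean *Thy1* was 2.74-fold higher, at 268.2 ± 8.0 CPM (SD, n = 3) against 98.0 ± 18.0 CPM (SD, n = 2) (log2 fold-change 1.46, standard error 0.13, 95% interval 1.13 to 1.78, adjusted *p* = 0.0029, limma). It ranked 152 among the rises of all genes tested.

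*Ly6a* encodes Sca-1, a GPI-anchored protein used to sort mouse mesenchymal and haematopoietic progenitors, and it was the most abundant of the 10 markers. *Ly6a* (ENSMUSG00000075602, chr15:74994877-74998031, minus strand) was at 592.3 and 955.2 CPM in CAF-vec and at 959.2, 989.4 and 935.0 CPM in CAF-200. CAF-vec 2 lay inside the CAF-200 range and CAF-vec 1 far below it. The log2 fold-change was 0.35 (standard error 0.21, 95% interval -0.17 to 0.88, adjusted *p* = 0.243, limma), smaller than the log2 difference of 0.69 between the 2 CAF-vec samples. Against CAF-vec 1 alone it was 0.70 (adjusted *p* = 1.4e-04, limma, with the single CAF-vec sample assumed to vary like the CAF-200 samples) and against CAF-vec 2 alone 0.0086 (adjusted *p* = 0.931, limma, under the same assumption).

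*Ly6c1* encodes another GPI-anchored Ly6 protein, found on endothelial cells, monocytes and some fibroblasts, and it lies 46.0 kb from *Ly6a*. *Ly6c1* (ENSMUSG00000079018, chr15:75044018-75048830, minus strand) was at 206.1 and 295.2 CPM in CAF-vec and at 154.9, 178.6 and 146.5 CPM in CAF-200. The groups did not overlap, but CAF-vec 1 stood nearer to CAF-200 2 than to CAF-vec 2. Its log2 fold-change was -0.63 (standard error 0.18, 95% interval -1.07 to -0.19, adjusted *p* = 0.046, limma). It was -0.89 without CAF-vec 1 (adjusted *p* = 7.4e-04, limma, single CAF-vec sample as above) and -0.37 without CAF-vec 2 (adjusted *p* = 0.019). Of the windows of 100 bases in the annotated transcripts of *Ly6c1*, 10.1% also occurred in *Ly6a* or *Ly6c2*, as did 1.45% of those of *Ly6a* in *Ly6c1*, so reads of these genes could be divided between them. With *Ly6a*, *Ly6c1*, *Ly6c2* and *Ly6i* summed the log2 fold-change was 0.16 (adjusted *p* = 0.561, limma).

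*Cd34* encodes a sialomucin of progenitor, endothelial and adventitial stromal cells and was the lowest of the tested markers in CAF-vec. *Cd34* (ENSMUSG00000016494, chr1:194938819-194961279, plus strand) was at 1.63 and 2.33 CPM in CAF-vec and at 1.30, 1.33 and 1.20 CPM in CAF-200. CAF-vec 1 was only slightly higher than the CAF-200 samples. The log2 fold-change was -0.47 (standard error 0.17, 95% interval -0.88 to -0.053, adjusted *p* = 0.0835, limma), with -0.67 without CAF-vec 1 and -0.26 without CAF-vec 2 (adjusted *p* = 0.0156 and 0.22). Transcripts of the opposite strand overlap exons of *Cd34*, *Ddr2* and the called marker *Svep1* as well.

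*Ddr2* encodes a receptor tyrosine kinase that is activated by fibrillar collagen. *Ddr2* (ENSMUSG00000026674, chr1:169972307-170110762, minus strand) was at 226.6 and 201.4 CPM in CAF-vec and at 150.1, 160.2 and 142.8 CPM in CAF-200. The lower CAF-vec sample was higher than all 3 CAF-200 samples. The mean was 214.0 ± 17.9 CPM (SD, n = 2) against 151.0 ± 8.70 CPM (SD, n = 3), 1.42-fold lower (log2 fold-change -0.50, standard error 0.10, 95% interval -0.75 to -0.25, adjusted *p* = 0.018, limma). Without CAF-vec 1 or CAF-vec 2 *Ddr2* passed an adjusted *p* of 0.01 (0.0046 and 5.3e-04, limma, single CAF-vec sample as above), whereas without any 1 CAF-200 sample its adjusted *p* was 0.0695 to 0.0991. At a looser adjusted *p* of 0.05, *Ddr2* and *Ly6c1* also passed, which made 5 markers lower against 18.6% of all genes and 1 higher against 11.9%. The number lower at 0.05 was 3 without any 1 CAF-200 sample, and 4 with no filter, no variance trend, quantile normalization or centring, under each of which *Ly6c1* no longer passed (adjusted *p* = 0.0523 to 0.129, limma). It was also 4 with the stricter filter, which left *Clec3b* untested.

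**Figure D2:**
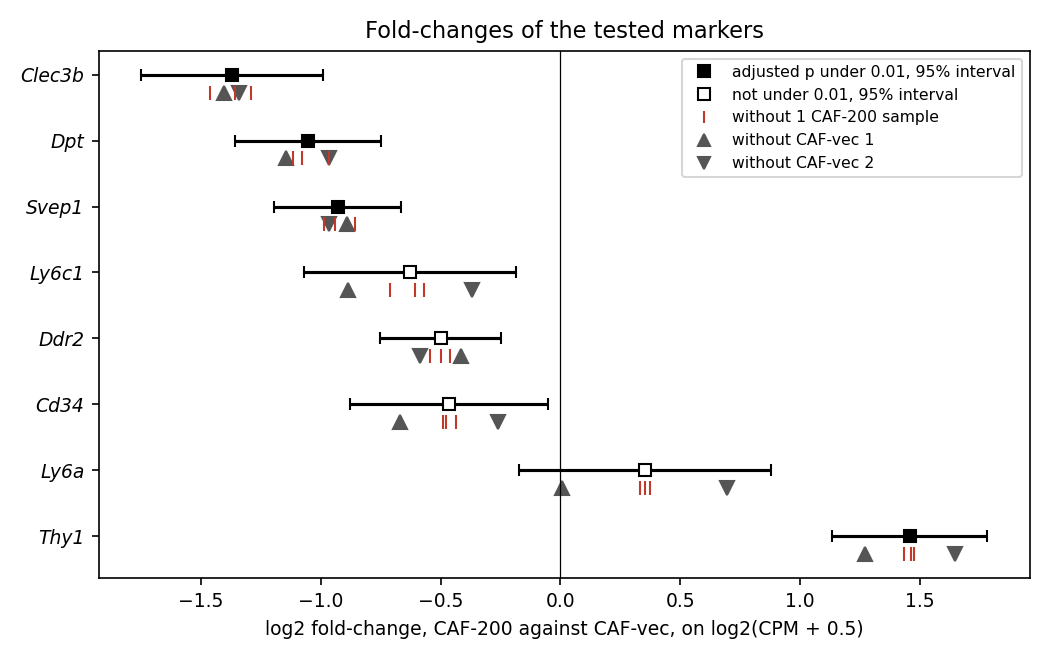
Log2 fold-change of CAF-200 against CAF-vec for the 8 tested markers (squares, filled where the adjusted *p* was under 0.01) with 95% intervals from limma, and below each the value with 1 sample left out (red ticks for CAF-200 samples, triangles for CAF-vec samples). The values of *Clec3b*, *Dpt*, *Svep1* and *Thy1* stay far from 0, whereas *Ly6a* moves between 0.0086 and 0.70 with the CAF-vec sample left out.

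Levels were compared between markers per kilobase of the longest protein-coding transcript, which ignores isoform use. On this scale *Ly6a* was the highest in both groups, at 810.2 ± 269 CPM per kb (SD, n = 2) in CAF-vec and 1006 ± 28.5 CPM per kb (SD, n = 3) in CAF-200. *Ly6c1* followed at 297.0 and 189.5 CPM per kb. *Dpt* was next in CAF-vec at 68.1 CPM per kb, with *Thy1* at 56.5 CPM per kb, and the lower *Dpt* sample and the higher *Thy1* sample were both at 63.9 CPM per kb. In CAF-200 this order was turned, with *Thy1* at 154.6 ± 4.61 and *Dpt* at 32.7 ± 3.49 CPM per kb (SD, n = 3). *Ddr2* (24.9 CPM per kb in CAF-vec), *Svep1* (12.2), *Clec3b* (3.42) and *Cd34* (0.776) kept the same order in CAF-200. The levels of *Pi16* and *Col14a1* overlapped in CAF-vec, and no other neighbours in the order overlapped in either group.

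**Figure D3:**
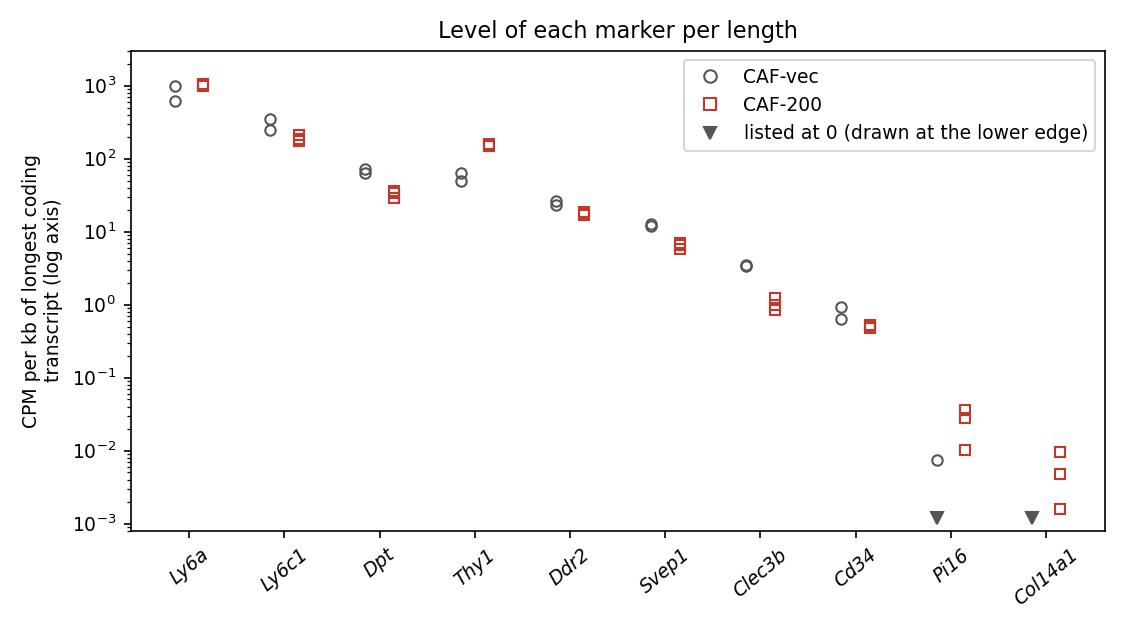
CPM per kb of longest coding transcript for each marker and sample on a log axis, in the order of the CAF-vec means, with CAF-vec as circles, CAF-200 as squares and values listed at 0 as triangles at the lower edge. Levels run from about 1000 CPM per kb for *Ly6a* to values listed at 0 for *Col14a1*, and *Thy1* and *Dpt* change places between the groups.

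The relatives of these markers were read in the same way. *Ddr1*, the other discoidin receptor and the one typical of epithelium, was at 282.6 and 172.8 CPM in CAF-vec and at 98.8, 104.6 and 95.8 CPM in CAF-200, with a difference of -1.14 on the log2 scale (limma, adjusted *p* = 0.0136). *Pi15*, which encodes a CAP-family relative of *Pi16*, rose (limma log2 fold-change 1.38, adjusted *p* = 0.0072). *Crispld2*, of the same family, was at 0.144 and 0.309 CPM in CAF-vec and at 0.902, 1.08 and 1.15 CPM in CAF-200 (limma log2 fold-change 1.10, adjusted *p* = 0.00999). It passed the filter only through CAF-200, where it was high, so its call is no support for a difference. *Col12a1* and *Col20a1*, which encode fibril-associated collagens like that of *Col14a1*, had log2 fold-changes of 0.24 and -0.61 (adjusted *p* = 0.265 and 0.0141, limma). *Podxl2*, a sialomucin of the CD34 family, was at 0.24 (adjusted *p* = 0.364). Of the 9 relatives, 6 were tested, 0 were lower and 2 were higher at an adjusted *p* of 0.01 (5.57% and 4.45% of all genes), and 2 were lower and 2 higher at 0.05 (18.6% and 11.9%). Without any 1 CAF-200 sample at most 1 of all 12175 genes was higher, so the 0 given below for that setting is shared by nearly all genes. The number of relatives higher at 0.01 was 1 among the 5 with at least 0.5 CPM in every sample, and 1 with either other pseudocount, no filter, the stricter filter or quantile normalization. It was 0 without any 1 CAF-200 sample and 3 without CAF-vec 2, and without either CAF-vec sample 2 relatives were lower. Leaving out a CAF-vec sample also raised the calls over all 12175 genes, to 1951 lower and 1550 higher without CAF-vec 1 and to 3766 lower and 2307 higher without CAF-vec 2, so the counts of any list under these settings are to be read against those totals.

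Of 15 Ly6-family genes of chromosome 15 found in the table, 7 were listed at 0 in all samples and 5 were tested. *Psca*, which encodes prostate stem cell antigen, was at 86.8 and 63.8 CPM in CAF-vec and at 24.3, 21.6 and 20.8 CPM in CAF-200 and fell (limma log2 fold-change -1.73, standard error 0.15, adjusted *p* = 0.0029). For *Ly6e*, a broadly expressed interferon-responsive member, the log2 fold-change was 0.76 (adjusted *p* = 0.0155), and *Lynx1*, a modulator of nicotinic receptors, one of 0.54 (adjusted *p* = 0.042, limma). The members of this cluster therefore had log2 fold-changes of both signs, from -1.73 for *Psca* to 0.76 for *Ly6e*.

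A wider list of 22 adventitial and universal fibroblast markers, none of them among the 10, gave a different count. Of these, 18 were tested, 1 was lower and 8 were higher at an adjusted *p* of 0.01, against 5.57% and 4.45% of all genes tested, and their median log2 fold-change was 0.80, against -0.094 over all genes. Among the 14 with at least 0.5 CPM in every sample, 0 were lower and 6 higher. Without any 1 CAF-200 sample 0 of the wider list were higher, when at most 1 of all 12175 genes was, so this 0 is shared by nearly all genes. *Lum*, which encodes the proteoglycan lumican, was at 3.24 and 4.02 CPM in CAF-vec and at 26.5, 32.4 and 27.1 CPM in CAF-200, and rose (log2 fold-change 2.82, adjusted *p* = 9.3e-04, limma). *Dcn*, which encodes decorin, the binding partner of dermatopontin, was at 7.67 and 8.18 CPM in CAF-vec and at 51.0, 61.5 and 56.7 CPM in CAF-200, and rose too (log2 fold-change 2.75, adjusted *p* = 8.4e-04, limma). *Tnxb*, which encodes tenascin X, was the lower gene, at 1.94 and 1.61 CPM against 0.411, 0.453 and 0.413 CPM (log2 fold-change -1.29, adjusted *p* = 0.0045, limma), and it passed the filter only through CAF-vec. No set test was run, so the counts describe the lists and do not show that they differ from each other or from other genes.

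Lists of neighbouring fibroblast states were mixed, and their counts stand beside 5.57% lower and 4.45% higher over all genes tested. Without any 1 CAF-200 sample, 0 of all 12175 genes were lower and at most 1 was higher, so a list count of 0 there is shared by nearly all genes. Of 16 alveolar fibroblast markers, 7 were tested, 2 fell and 1 rose, with 4 lower without CAF-vec 2 and 0 in either direction without any 1 CAF-200 sample, and *Tcf21*, the transcription factor that defines that state, was listed at 0 in all samples. *Inmt* and *Fgf10* had log2 fold-changes of -1.92 and -0.92 (adjusted *p* = 0.0071 and 0.0033, limma), and *Npnt*, which encodes the matrix protein nephronectin, had one of 2.51 (adjusted *p* = 9.3e-04). Of 14 myofibroblast markers, 12 were tested, 1 was lower and 4 rose, led by *Tagln* (log2 fold-change 2.94, adjusted *p* = 0.0018) and *Cnn1* (2.79, adjusted *p* = 9.3e-04, limma), which encode actin-binding proteins of contractile cells. The lower one, *Aspn* (log2 fold-change -1.67, adjusted *p* = 0.0047, limma), passed the filter only through CAF-vec, and 0 of the 10 myofibroblast markers with at least 0.5 CPM in every sample were lower. The 4 higher became 8 without CAF-vec 2, when calls over all genes grew as given above, and 0 without any 1 CAF-200 sample. Of 12 pericyte and smooth muscle markers, 5 were tested and 1 was higher, *Actg2* (limma log2 fold-change 2.05, adjusted *p* = 0.0029), but 0 of the 3 with at least 0.5 CPM in every sample were, and *Kcnj8*, *Abcc9* and *Higd1b* of pericytes were listed at 0 in all samples. Of the 6 pan-mesenchymal genes 0 passed at an adjusted *p* of 0.01, the most abundant in CAF-vec being *S100a4* and *Col1a2* (log2 fold-changes 0.063 and -0.75, adjusted *p* = 0.884 and 0.112, limma), and 1 passed at 0.05. Without CAF-vec 2, 3 of these were lower and 1 higher at 0.01, and without CAF-vec 1, 0 were lower and 1 higher, beside the larger totals over all genes given above.

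**Figure D4:**
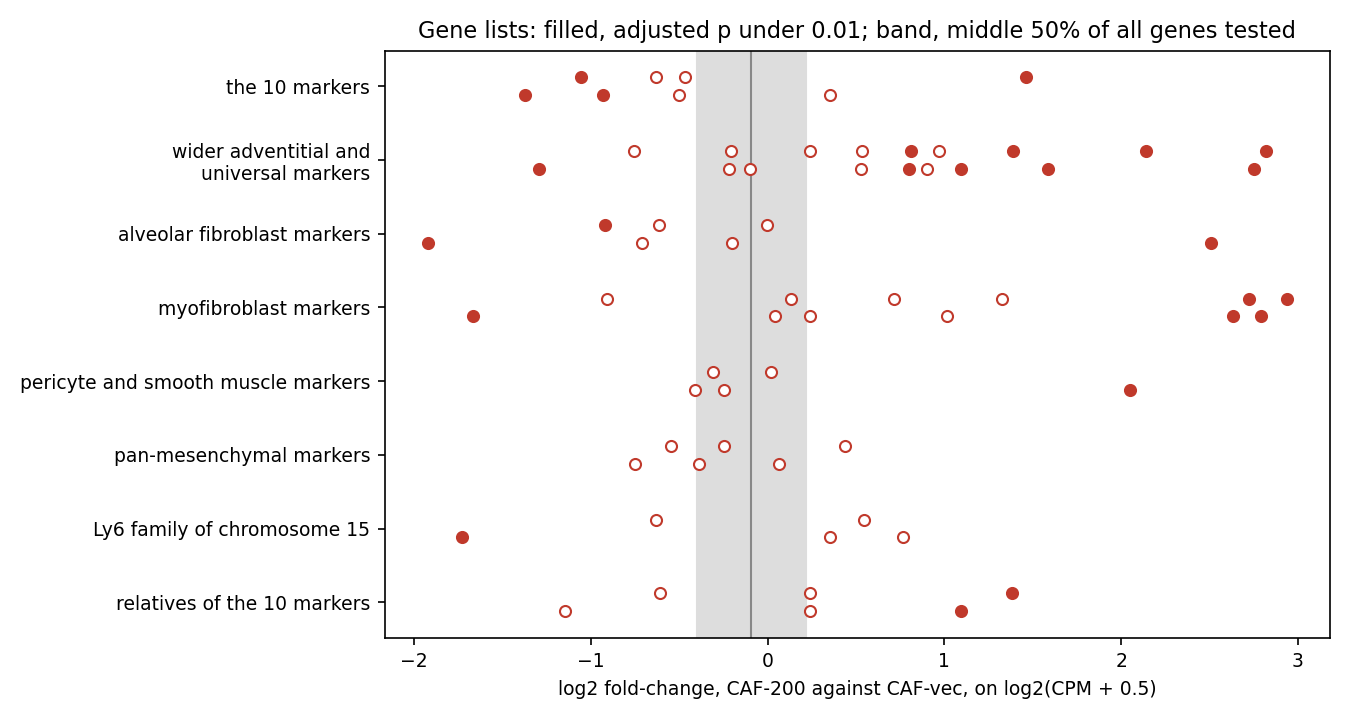
Log2 fold-change of every tested gene of each list (circles, filled where the adjusted *p* was under 0.01), with the median of all genes tested (line) and their middle 50% (grey band, -0.40 to 0.22). The tested markers of the 10 and the alveolar list lie mostly to the left of the line, and the wider adventitial and myofibroblast lists mostly to the right.

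*Cd34*, *Ly6a*, *Ly6c1* and *Thy1* also mark endothelial or blood cells, so markers of those cells were read beside them. The CPM of 10 endothelial markers summed to 3.37 and 2.31 in CAF-vec and to 1.62 to 2.39 in CAF-200, with *Cldn5*, *Emcn* and *Tie1* listed at 0 in all samples. Of the 2 tested, *Kdr* was lower (log2 fold-change -1.26, adjusted *p* = 0.0081) and *Egfl7* had the opposite sign (1.31, adjusted *p* = 0.027, limma), and 0 had at least 0.5 CPM in every sample. The 1 lower, against 5.57% of all genes tested, became 0 with no filter, the stricter filter or the replicate block. It was also 0 without any 1 CAF-200 sample, when 0 of all 12175 genes were lower. *Egfl7* was named after its values were seen. The CPM of 10 leukocyte markers summed to 8.50 and 9.65 in CAF-vec and to 12.6 to 13.5 in CAF-200, with *Cd3e*, *Adgre1* and *Tyrobp* listed at 0 in all samples. Of the 4 tested, 1 was higher, *Lyz2* (log2 fold-change 1.91, adjusted *p* = 0.0039, limma), against 4.45% of all genes tested. The CPM of 6 mesothelial markers summed to 5.99 and 7.15 in CAF-vec and to 1.26 to 1.90 in CAF-200, with *Lrrn4* and *Muc16* at 0. *Msln*, the 1 tested, fell (log2 fold-change -1.97, adjusted *p* = 0.0029, limma), where 5.57% of all genes tested were lower. The part of such cells in the results for the 10 markers was not tested.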

How the data were processed

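RNA of 2 CAF-vec and 3 CAF-200 samples was compared, in groups taken from the sample titles. The study's methods state 3 RNA extractions for CAF-vec as for CAF-200, but the series holds only 2 CAF-vec samples. The authors deposited 1 table of normalized CPM values, whose name gives TMM normalization. Their processing notes name FastQC, cutadapt, Trimmomatic, STAR, RSEM and edgeR with the builds GRCm38 and mm10, without roles or versions. The columns summed to between 999956 and 1000111 CPM. In CAF-200 a gene was at 0 in all samples (6127 genes) or in none, and 5.19% to 7.05% of the positive values lay under 0.005 CPM, against 0% in CAF-vec, so the values may not be plain scaled counts and whole reads could not be recovered. The depth is therefore unknown, and 0 sample columns were left out.

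Gene names (21795 of 21835 matched), coordinates and 3′-UTRs came from GENCODE M21 (GRCm38), and miRNAs from RefSeq. A gene was tested if 2 or more samples reached 0.5 CPM. limma 3.58.1 (R 4.3.3, lmFit, eBayes with a variance trend) was run on log2(CPM + 0.5), with Benjamini-Hochberg adjustment over all 12175. An adjusted *p* under 0.01 was called. An exact permutation of 2 against 3 samples cannot reach 0.05 and was not used. The test was tested on simulated data.

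The 10 markers and the other lists were chosen with earlier results of these data known. Named were all markers, their tested relatives and Ly6 genes, and of each other list the 2 largest falls and 2 largest rises past the threshold, or the 2 most abundant genes where none passed. Alternatives were other pseudocounts (1 and 0.1), filters and scalings, no variance trend, an adjusted *p* of 0.05, each sample left out, the replicate block and, added after seeing the data, 4 Ly6 genes summed. Python 3.11.15 with pandas 2.3.3, numpy 2.4.6 and matplotlib 3.10.9 was used.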

Additional observations from a re-analysis of the deposited data

How the results depend on the processing

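The sign of each tested marker was the same under every alternative in which it was tested, *Ly6a* by only 0.0086 without CAF-vec 1. The 3 markers lower at an adjusted *p* of 0.01 became 5 at 0.05 and 0 with the replicate block, and 0 to 5 with 1 sample left out. The 1 marker higher became 0 with the replicate block and 0 to 2 with 1 sample left out, where the second, without CAF-vec 2, was *Ly6a*. Of those also beyond a log2 fold-change of 1, the 2 lower became 1 after quantile normalization, 1 after centring and 1 with at least 1 CPM in every sample, which left *Clec3b* untested, 0 under the replicate block, and 0 to 2 with 1 sample left out. The 1 higher became 0 with the block and 0 to 1 with 1 sample left out. Every loss of a call to 0 came with the block or with a CAF-200 sample left out. Without a CAF-200 sample, 0 of 12175 genes were lower and at most 1 was higher (limma), 3821 to 4065 genes having an unadjusted *p* under 0.05, and the 4 called markers had adjusted *p* values of 0.0244 to 0.0368. Without a CAF-vec sample, the lone one was assumed to vary like CAF-200, and 5 of the 8 tested markers were lower without CAF-vec 1, when 1951 of 12175 genes were, and 4 without CAF-vec 2, when 3766 were.

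Labels give the numbers 1 and 2 to both groups, and deviations of same-numbered samples correlated at 0.25 and 0.13, against 0.12 for a pair with unlike numbers (2 and 3). The deviations of the 2 CAF-vec samples from their mean are equal and opposite, so these correlations depend on each other. They cannot show whether the samples were paired. Nothing but the numbers ties the pairs. With the number as a block, which leaves CAF-200 3 out of the fold-change, *Clec3b*, *Dpt*, *Svep1* and *Thy1* had log2 fold-changes of -1.29, -1.08, -0.86 and 1.44, with adjusted *p* values of 0.02, 0.0165, 0.0285 and 0.0121 (limma). Over all genes, the 678 lower and 542 higher became 70 and 101 with the block, 376 and 347 with no filter, and 543 and 720 after centring. The cause of these changes was not tested. The 8 higher genes of the wider list became 5 with no filter and 3 with the block, which also gave 0 higher relatives, 1 lower alveolar marker and 3 of the 10 markers lower at an adjusted *p* of 0.05, with *Ddr2* at 0.128 and *Ly6c1* at 0.0883 (limma). Having only 2 CAF-vec samples limits the precision. Among the tested markers the standard errors were largest for *Ly6a*, *Ly6c1* and *Cd34* (0.21, 0.18 and 0.17). The depth is unknown, and its part in this was not tested.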
